A study of Homo sapiens with 12 samples.

Results

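Genes of glycolysis and of the response to low oxygen were followed across RNA-seq libraries of SW48 cells, a colorectal carcinoma line, and OVK18 cells, an ovarian carcinoma line. The 37 members, of 25343 genes in the count table, were taken from a list by symbol: 15 glycolytic enzymes, both lactate dehydrogenase subunits LDHA and LDHB, the glucose transporters SLC2A1 and SLC2A3, 4 regulators of flux, 10 further target genes of the hypoxia-inducible factors, the oxygen sensors EGLN1 and EGLN3, and the factor subunits HIF1A and EPAS1. All 37 were found. Of these, 36 had enough counts to be tested, and CA9 did not. The 6 groups were SW48 with sgWRN2, SW48 with sgWRN3, SW48 with sgCh2-2, OVK18 with sgWRN2, OVK18 with sgWRN3 and OVK18 with sgCh2-2, each with 2 libraries, A and B, collected 72 h after transduction with the guide. All 6 groups were Cas9-expressing cells, and whether the edited cells were a pool is not stated. sgWRN2 and sgWRN3 cut WRN, which encodes a RecQ helicase needed by cells with unstable microsatellites, and sgCh2-2 is the control guide, directed at an intergenic site on chromosome 2. The labels do not say whether A and B were separate cultures, so p-values measure the spread between these libraries, which may be technical. Oxygen and glucose in the medium are not given in the sources used here.

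Glycolysis breaks glucose down to pyruvate in the cytosol, and lactate dehydrogenase turns pyruvate into lactate. Pyruvate dehydrogenase kinases such as PDK1 and PDK3 block the entry of pyruvate into mitochondrial oxidation. When oxygen is present, the prolyl hydroxylases EGLN1 and EGLN3 mark HIF1A and EPAS1 proteins for destruction; when it is scarce, these factors accumulate and bind a short core, ACGTG or GCGTG, near their target genes. That control acts on protein, so the HIF1A and EPAS1 transcripts measured here do not report it.

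The core was searched in the RefSeq promoters of the members (build GRCh38.p14, 250 bases before to 50 after the gene start). Of 37 members, 33 matched an entry; NDRG1, BNIP3L, VEGFA and SLC2A3 did not. ACGTG or GCGTG on either strand was present in 25 members, or 75.8%, against 54.7% of 22197 promoters of protein-coding genes. ACGTG was present in 14 members, or 42.4%, against 23.0%, and GCGTG in 17 of the 33, against 43.0%. Matches numbered 2 or more in 9 of the 33, against 27.3% of all these promoters, and 3 or more in 6, against 12.2%. Each member was counted by 1 entry, whereas every entry of a protein-coding gene was counted in the background. The median ratio of observed to expected CpG was 0.825 in the members and 0.737 in all promoters, and its part in these shares was not tested. BNIP3 and LDHA had 6 matches each over the window, more than any other member, ahead of ALDOC with 5 and PGK1 with 4. The 250 bases before the start are shown for this pair and for EPAS1, the member with the largest rise among those past the threshold in a guide comparison. BNIP3 lies on the minus strand at chr10:131981924-131982173, LDHA on the plus strand at chr11:18394313-18394562 and EPAS1 on the plus strand at chr2:46297157-46297406. Capitals mark each core read on either strand, and CACGTG counts as 2 because it holds the core on both strands.
BNIP3: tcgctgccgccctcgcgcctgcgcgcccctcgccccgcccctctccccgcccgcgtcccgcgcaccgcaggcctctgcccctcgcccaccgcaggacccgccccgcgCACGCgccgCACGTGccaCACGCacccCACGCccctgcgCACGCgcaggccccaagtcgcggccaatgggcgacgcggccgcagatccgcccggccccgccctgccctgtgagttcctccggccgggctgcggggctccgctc
LDHA: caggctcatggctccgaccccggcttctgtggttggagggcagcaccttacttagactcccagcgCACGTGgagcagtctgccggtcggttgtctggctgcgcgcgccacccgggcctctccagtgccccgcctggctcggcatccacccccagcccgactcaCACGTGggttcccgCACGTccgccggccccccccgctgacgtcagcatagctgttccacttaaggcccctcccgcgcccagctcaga
EPAS1: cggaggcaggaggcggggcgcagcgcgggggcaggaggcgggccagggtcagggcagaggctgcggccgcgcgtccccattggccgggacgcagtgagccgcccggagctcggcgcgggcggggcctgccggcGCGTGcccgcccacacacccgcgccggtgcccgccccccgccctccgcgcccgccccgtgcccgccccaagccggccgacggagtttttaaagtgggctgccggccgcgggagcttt
The 6 matches of BNIP3 stood together between 143 and 104 bases before the start. In LDHA, 5 matches lay between 185 and 73 bases before it and the other at base 39 after it, outside the bases shown. EPAS1 had 1 match, of the GCGTG form, and PDK1, which was lower with sgWRN2 in both lines, had 0 in its window. The PDK1 window had 36.3% GC, the lowest of the 33 members, and bases outside it were not searched. A match is a description of letters and not of binding.

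Library totals ran between 15423162 and 32581625 counts. Levels of a gene are given as CPM, its counts relative to the TMM-scaled library total, and differences are log2 values with their standard error (SE) and the Benjamini-Hochberg adjusted p of edgeR's quasi-likelihood test over 14199 genes; a gene passed when that p was under 0.05. Levels of different genes are compared as FPKM, which divides by length. WRN had 37.2 and 34.1 CPM with sgWRN2 and 42.3 and 56.9 CPM with sgWRN3 in SW48, against 91.2 and 112 CPM with sgCh2-2. In OVK18 it had 22.01 and 21.0 CPM with sgWRN2 and 22.2 and 23.0 CPM with sgWRN3, against 32.0 and 39.8 CPM with sgCh2-2. All 8 WRN-guide libraries lay below the controls of their line. The difference passed for sgWRN2 in SW48 (log2 -1.51, SE 0.16, adjusted p = 0.000461), but not for sgWRN3 in SW48 (adjusted p = 0.438), sgWRN2 in OVK18 (0.0658) or sgWRN3 in OVK18 (1). For sgWRN3 in SW48 it passed with DESeq2 (log2 -1.01, adjusted p = 0.000163) and without the filter on low counts (log2 -1.02, 2.86e-07), and with no other alternative. For sgWRN2 in OVK18 it passed with DESeq2 (log2 -0.72, 0.00543), without that filter (log2 -0.72, 0.000646) and on FPKM (limma on log2(FPKM + 0.1), 0.0456). Epithelial markers summed to 2573 to 3416 CPM in SW48 and 12.3 to 17.9 CPM in OVK18. Intestinal markers summed to 200.4 to 241.0 CPM in SW48 and 0.0436 to 0.233 CPM in OVK18. Fibroblast markers summed to 0.324 to 0.577 CPM in SW48 and 410 to 481 CPM in OVK18. The collagen gene COL3A1 made most of the OVK18 sum, averaging 436 CPM with sgCh2-2, and PDGFRA averaged 22.4 CPM there. The rest of that list was low in OVK18 sgCh2-2: LUM 1.76, COL1A2 1.56, COL1A1 1.11, PDGFRB 0.330 and DCN 0.318 CPM on average. Of 6 Mullerian and ovarian markers PAX8 and WFDC2 were at 0 in both OVK18 control libraries. HOXA10 and HOXA11 made most of that list's 74.3 to 81.6 CPM in OVK18. The list summed to 102.6 to 118.9 CPM in SW48, so it did not set OVK18 apart. With sgCh2-2 in SW48, HOXA10 averaged 58.9, MSLN 37.5, HOXA11 15.8 and PAX8 4.31 CPM. In bulk RNA, fewer cells of a type and less RNA per cell cannot be told apart.

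Libraries A and B of a group differed in the glycolytic enzymes, in a direction that changed between guides. Over the 15 enzymes and 2 lactate dehydrogenases the median log2 difference A minus B was -0.02 with sgWRN2, 0.23 with sgWRN3 and 0.14 with sgCh2-2 in SW48. In OVK18 it was -0.15 with sgWRN2, 0.17 with sgWRN3 and 0.24 with sgCh2-2, where A was higher for 17 of 17 genes; with sgWRN2 A was higher for 2 of 17. Over all genes tested these medians lay between 0 and 0.00263. GAPDH, for example, had 1665 and 2078 CPM in A and B of OVK18 sgWRN2, and 2185 and 1714 CPM in A and B of OVK18 sgCh2-2. The same enzymes ran opposite ways in these 2 groups, and the part of this difference in the results below was not tested.

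**Figure D1:**
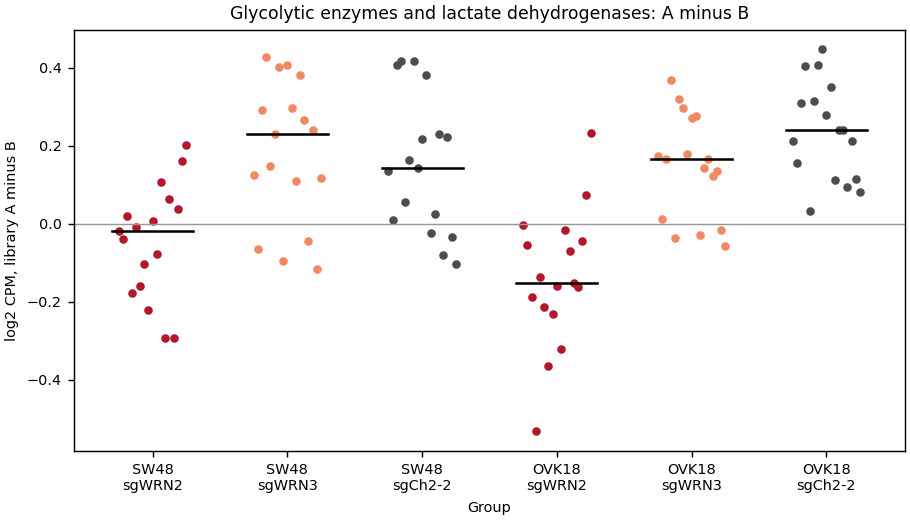
Log2 CPM of library A minus library B (vertical axis) for the 17 glycolytic enzymes and lactate dehydrogenases (points) in each group (horizontal axis), with the median as a line. The medians are 0.24 in OVK18 with sgCh2-2 and -0.15 in OVK18 with sgWRN2.

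The glycolytic enzymes were among the more abundant transcripts of both lines; in the controls GAPDH ranked 56 of 25273 genes by FPKM in SW48 and 36 in OVK18. With sgCh2-2, GAPDH, the dehydrogenase of the middle of the pathway, averaged 1133 ± 257 FPKM in SW48 and 1216 ± 243 FPKM in OVK18 (SD, n = 2 each), the highest of the 37 members in each line. LDHB averaged 688 ± 12.8 FPKM in SW48 and 987 ± 65.5 FPKM in OVK18, and PKM, the last kinase of the pathway, 541 ± 74.4 FPKM in SW48 and 251 ± 32.3 FPKM in OVK18. The summed FPKM of the 17 enzymes ran between 3403 and 4612 over the 12 libraries, which was 0.801% to 1.09% of each library's FPKM sum. CA9, carbonic anhydrase 9, a classical marker of hypoxic cells, had 1 count in all 12 libraries together and 0 in 11 of them; a count of 0 allows up to 0.0929 to 0.191 CPM in a library, counting error only.

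**Figure D2:**
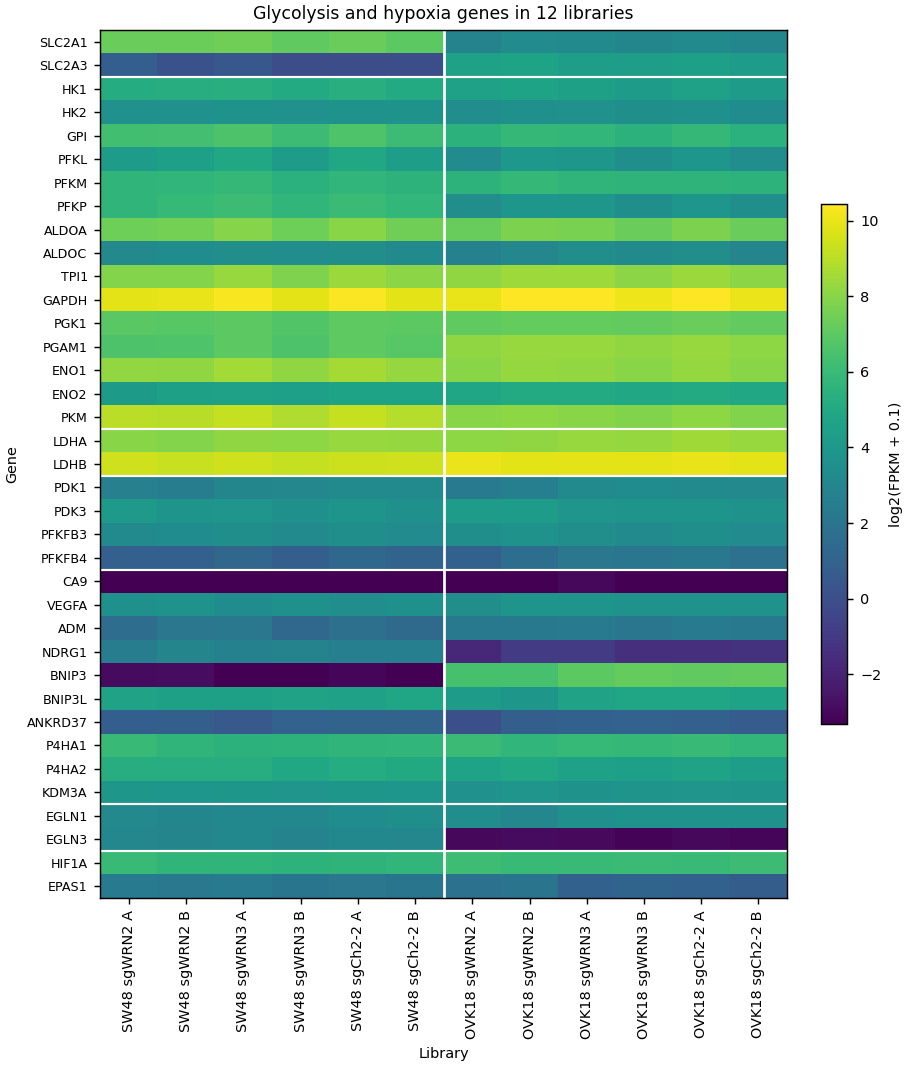
Log2(FPKM + 0.1) of the 37 members (rows, white lines part the roles) in the 12 libraries (columns, a white line parts the lines). SLC2A3, BNIP3, SLC2A1, NDRG1 and EGLN3 separate SW48 from OVK18, and CA9 is at or near 0 throughout.

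The control libraries of SW48 and OVK18 were compared as background for the guide effects. Of 36 members tested, 20 passed, 10 higher and 10 lower in SW48, where 68.6% of all genes tested passed; 33.9% were higher and 34.7% lower. The members' share was thus not above that of all genes. Of the 17 enzymes and dehydrogenases, 5 were higher in SW48 (PFKP, PKM, PFKL, HK1 and GPI) and 4 were lower (PGAM1, LDHB, ENO2 and PGK1).

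The largest contrasts among members were those of BNIP3, EGLN3, SLC2A3, NDRG1 and SLC2A1. SLC2A1, the ubiquitous transporter GLUT1, had 694.5 and 591 CPM in SW48 and 42.8 and 37.03 CPM in OVK18 (log2 4.01, SE 0.17, adjusted p = 3.92e-10). SLC2A3, the high-affinity transporter GLUT3 typical of neurons, had 3.68 and 4.16 CPM in SW48 and 96.9 and 92.1 CPM in OVK18 (log2 -4.60, SE 0.19, adjusted p = 3.47e-10). SLC2A1 thus made 99.4% of the summed FPKM of these transporters in SW48 and 29.6% in OVK18.

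EGLN3 had 27.5 and 27.4 CPM in SW48, against 4 counts in both OVK18 libraries together; the ratio of SW48 to OVK18 was 399, with an exact Poisson 95% interval of 155 to 1465 (counting error only). EGLN1 did not pass (92.1 and 104.2 CPM in SW48, 116.3 and 119.2 CPM in OVK18), and EGLN1 made 56.6% of the FPKM of the 2 sensors in SW48 and 99.8% in OVK18. BNIP3, a receptor for the removal of mitochondria, had 1 count in both SW48 libraries together, against 179 and 202 CPM in OVK18; the ratio of SW48 to OVK18 was 0.000105 (exact Poisson 95% interval 2.65e-06 to 0.000584). Its relative BNIP3L had 98.1 and 120.0 CPM in SW48 and 118.6 and 111.9 CPM in OVK18, a difference that did not pass (adjusted p = 0.650).

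NDRG1, a stress-response gene induced by hypoxia, had 22.8 and 23.1 CPM in SW48 and 1.01 and 1.21 CPM in OVK18 (log2 4.35, SE 0.28, adjusted p = 2.44e-08). PFKP, the platelet-type phosphofructokinase, had 221 and 197 CPM in SW48 and 52.4 and 42.1 CPM in OVK18 (log2 2.14, SE 0.15, adjusted p = 6.26e-08); it made 44.7% of phosphofructokinase FPKM in SW48 and 17.5% in OVK18, where the muscle type PFKM made 65.5%. PKM had 1724 and 1478 CPM in SW48 and 809 and 698.5 CPM in OVK18 (log2 1.09, SE 0.12, adjusted p = 3.74e-06). In each of these 3 genes the lines did not overlap.

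PGAM1, a phosphoglycerate mutase, had 46.8 and 46.0 CPM in SW48 and 126.2 and 106.8 CPM in OVK18 (log2 -1.33, SE 0.14, adjusted p = 3.66e-06). Its FPKM, 124 in SW48 and 299 in OVK18 on average, are high beside its counts. PGAM1, GAPDH, LDHA, LDHB, ENO1, PKM and BNIP3 have processed pseudogenes of similar sequence, and how reads shared with them were counted is not given in the sources used here, so their levels are uncertain. PFKFB4, which makes the activator of phosphofructokinase, had 10.4 and 8.91 CPM in SW48 and 20.4 and 15.4 CPM in OVK18 (log2 -0.88, SE 0.21, adjusted p = 0.00269). ADM, the secreted peptide adrenomedullin, had 5.29 and 4.48 CPM in SW48 and 7.84 and 8.33 CPM in OVK18 (log2 -0.72, SE 0.22, adjusted p = 0.0116), a call that ended without SW48 sgCh2-2 library B (adjusted p = 0.0718) or OVK18 sgCh2-2 library B (0.0618) and on FPKM (limma, 0.0689).

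The factor subunits differed in opposite directions. EPAS1, which encodes HIF-2 alpha, had 27.5 and 26.6 CPM in SW48 and 12.2 and 10.8 CPM in OVK18 (log2 1.23, SE 0.13, adjusted p = 3.45e-06). HIF1A had 252 and 277 CPM in SW48 and 333 and 374 CPM in OVK18 (log2 -0.42, SE 0.13, adjusted p = 0.0131). HIF1A was the main one in both lines, at 92.5% of their summed FPKM in SW48 and 97.5% in OVK18. VEGFA, the angiogenic growth factor, had 37.9 and 43.7 CPM in SW48 and 45.7 and 46.4 CPM in OVK18, a difference that did not pass (adjusted p = 0.242). PDK3 had 103 and 106 CPM in SW48 and 177 and 172 CPM in OVK18 (log2 -0.74, SE 0.11, adjusted p = 7.15e-05), a call that ended on FPKM (limma on log2(FPKM + 0.1), adjusted p = 0.573). PDK1 had nearly equal levels (log2 -0.01, SE 0.13, adjusted p = 0.938).

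**Figure D3:**
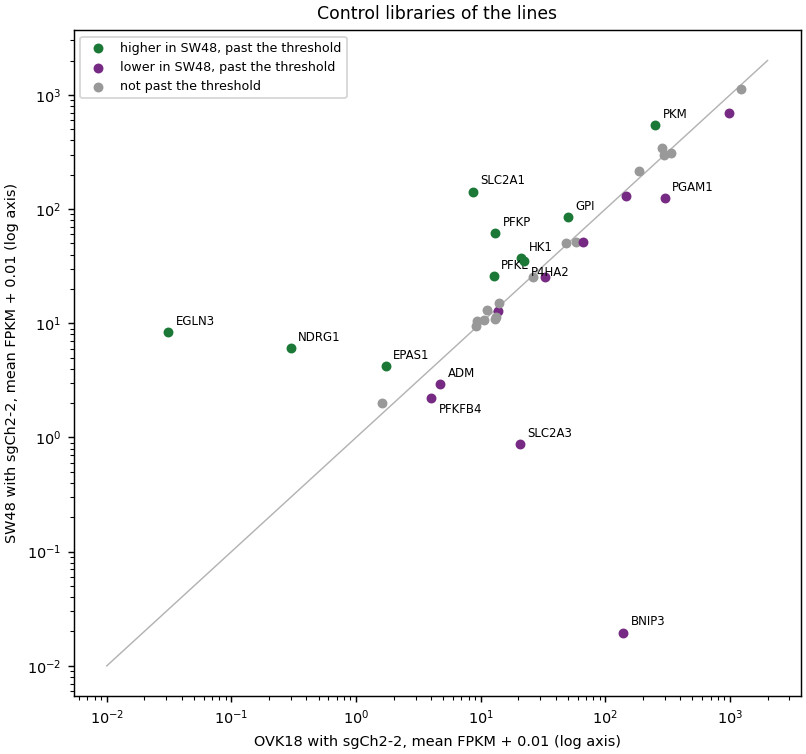
Mean FPKM + 0.01 of each tested member in SW48 (vertical, log axis) and OVK18 (horizontal, log axis) with sgCh2-2, 2 libraries each; colour gives the call on counts and the line marks equal levels. BNIP3 and SLC2A3 lie far below the line, and SLC2A1, EGLN3 and NDRG1 far above it.

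With both WRN guides in 1 contrast, no member passed in either line. In SW48 0 of 36 passed (0.866% of all genes tested passed; 4 members had an unadjusted p under 0.05, against 7.84% of all genes, and DESeq2 called PDK1 alone at adjusted p = 0.0353). In OVK18 0 of 36 passed (0.0282% of all genes; 5 members had an unadjusted p under 0.05, against 4.04% of all genes, and DESeq2 called EPAS1 alone at adjusted p = 0.000479). The smallest p in SW48 was that of PDK1 (log2 -0.43, SE 0.11, adjusted p = 0.125), followed by SLC2A3 (log2 0.51, SE 0.18, adjusted p = 0.374), PDK3 (log2 -0.27, SE 0.10, adjusted p = 0.377) and EGLN1 (log2 -0.30, SE 0.12, adjusted p = 0.508). In OVK18 it was that of EPAS1 (log2 0.63, SE 0.12, adjusted p = 0.182), and BNIP3, PDK1 and PDK3 followed at log2 -0.38, -0.35 and -0.23. The median log2 difference of the members was -0.02 in SW48 and -0.02 in OVK18, and over all genes tested it was 0.00379 and 0. Each guide was then compared with sgCh2-2 alone; these comparisons share the control libraries.

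With sgWRN2, PDK1 and, on counts but not on FPKM, PDK3 were lower in SW48, and PDK1 and BNIP3 were lower and EPAS1 higher in OVK18. In SW48 2 of 36 members passed, both lower (3.08% of all genes tested passed, 1.95% lower). In OVK18 3 of 36 passed, 1 higher and 2 lower (0.796% of all genes, 0.535% higher and 0.261% lower). The median log2 difference of the members was -0.02 in SW48 and -0.05 in OVK18, and over all genes 0.02 and -0.00155.

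PDK1 had 35.8 and 31.9 CPM in SW48 sgWRN2, against 50.8 and 56.4 CPM in SW48 sgCh2-2. In OVK18 it had 29.4 and 33.04 CPM with sgWRN2, against 55.2 and 52.8 CPM with sgCh2-2. The sgWRN2 libraries lay below the controls in both lines, at 0.633 times the control level in SW48 (log2 -0.66, SE 0.13, adjusted p = 0.0164) and 0.578 times in OVK18 (log2 -0.79, SE 0.13, adjusted p = 0.0163). These contrasts share no library, but A minus B was correlated between the lines (0.331 for sgCh2-2 and 0.351 for sgWRN2, over all genes tested). Leaving out a library leaves its group with 1, which is then assumed to vary like the other groups, so a call that ends there is no measure of a smaller difference. The SW48 call ended without sgCh2-2 library B (adjusted p = 0.102), without sgWRN2 library A (0.0723) and without sgWRN2 library B (0.164), at log2 differences of -0.75 to -0.59. The OVK18 call ended without any 1 of the 4 libraries: sgCh2-2 A (0.202), sgCh2-2 B (0.143), sgWRN2 A (0.0689) and sgWRN2 B (0.0593); the log2 difference there was -0.86 to -0.69. It also ended when only OVK18 libraries were fitted (log2 -0.78, adjusted p = 0.0626).

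PDK3 had 78.7 and 69.3 CPM in SW48 sgWRN2, against 103 and 106 CPM in SW48 sgCh2-2, and fell (log2 -0.50, SE 0.11, adjusted p = 0.0322). In OVK18 it had 132 and 113 CPM with sgWRN2, against 177 and 172 CPM with sgCh2-2, which did not pass (log2 -0.51, SE 0.11, adjusted p = 0.0628) but did with 5 other settings or tools and without OVK18 sgWRN2 library A (0.0499). The deposited FPKM ran the other way: PDK3 averaged 15.2 ± 2.02 FPKM with sgWRN2 and 12.9 ± 1.29 FPKM with sgCh2-2 in SW48, and 19.2 ± 0.652 FPKM with sgWRN2 and 13.7 ± 0.512 FPKM with sgCh2-2 in OVK18 (SD, n = 2 each). On log2(FPKM + 0.1) the differences were 0.23 (adjusted p = 0.459) and 0.49 (adjusted p = 0.111) by limma. The direction of PDK3 therefore depended on the table, and the cause was not tested. The SW48 call on counts ended without any 1 of its libraries sgCh2-2 A (0.0669), sgCh2-2 B (0.133), sgWRN2 A (0.0858) and sgWRN2 B (0.261), at log2 -0.60 to -0.43.

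EPAS1 had 24.3 and 25.04 CPM in OVK18 sgWRN2, against 12.2 and 10.8 CPM in OVK18 sgCh2-2. Both sgWRN2 libraries stood above both controls, at 2.14 times their level (log2 1.10, SE 0.13, adjusted p = 0.00223); the call ended without OVK18 sgCh2-2 library B (adjusted p = 0.0521). In SW48, EPAS1 had 34.3 and 31.3 CPM with sgWRN2, against 27.5 and 26.6 CPM with sgCh2-2; these libraries did not overlap either, and the difference did not pass (log2 0.28, SE 0.13, adjusted p = 0.382). EPAS1 in OVK18 sgWRN2 was close to the level of the SW48 controls. The share of EPAS1 in the summed FPKM of HIF1A and EPAS1 stayed small, since HIF1A made 94.8% in OVK18 sgWRN2 and 97.5% in OVK18 sgCh2-2. HIF1A itself had 389 and 322 CPM in OVK18 sgWRN2, against 333 and 374 CPM in OVK18 sgCh2-2, and 341 and 272 CPM in SW48 sgWRN2, against 252 and 277 CPM in SW48 sgCh2-2; in both lines the groups overlapped.

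BNIP3 had 117 and 105 CPM in OVK18 sgWRN2, against 179 and 202 CPM in OVK18 sgCh2-2. Both sgWRN2 libraries were below both controls, at 0.584 times their level (log2 -0.78, SE 0.13, adjusted p = 0.0225). The call ended without OVK18 sgCh2-2 library A (0.150) or B (0.299), without OVK18 sgWRN2 library B (0.160) and when only OVK18 libraries were fitted (0.0693), at log2 -0.84 to -0.66. In SW48, BNIP3 had at most 1 count in a library with any guide, so no difference could be read there. BNIP3L had 84.8 and 64.6 CPM in OVK18 sgWRN2, against 118.6 and 111.9 CPM in OVK18 sgCh2-2, apart but not past the threshold (log2 -0.62, SE 0.15, adjusted p = 0.0946), while BNIP3 made 83.4% of the FPKM of the pair, against 84.2% with sgCh2-2.

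**Figure D4:**
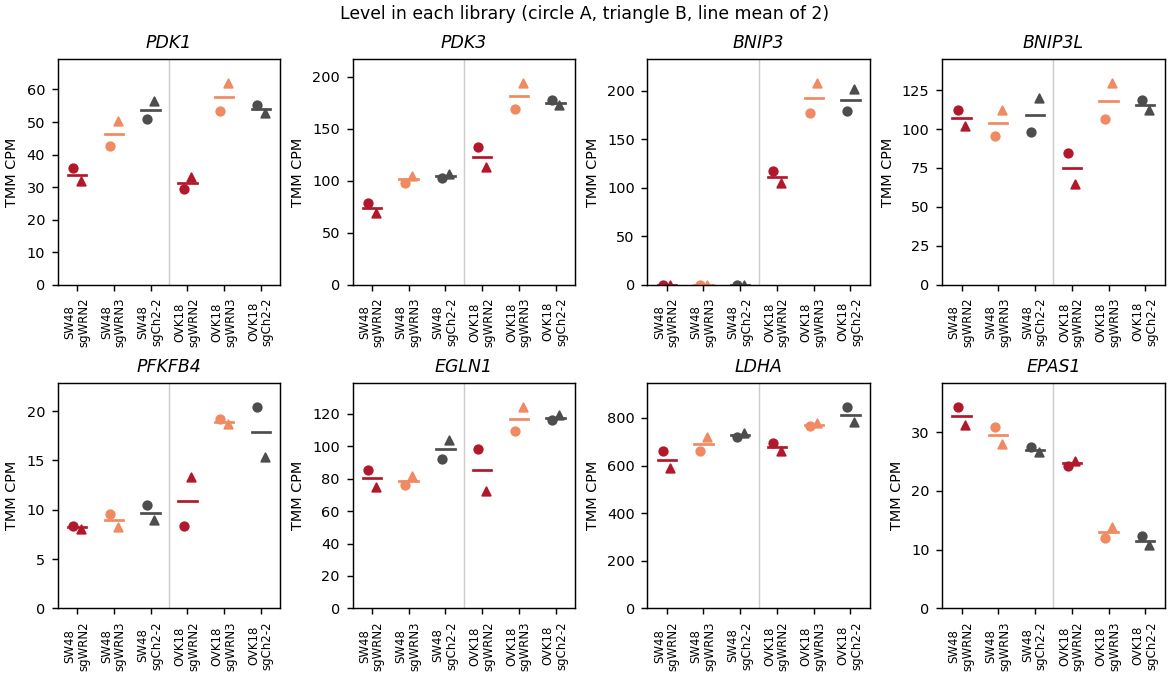
TMM-scaled CPM of 8 members (vertical axes, from 0) by group (horizontal axes), circle library A, triangle library B, line the mean of 2. PDK1 lies at 29.4 to 35.8 CPM in the sgWRN2 libraries of both lines and at 50.8 to 56.4 CPM in those with sgCh2-2; EPAS1 in OVK18 lies at 24.3 and 25.04 CPM with sgWRN2 and at 12.2 and 10.8 CPM with sgCh2-2.

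The members that follow did not pass with sgWRN2. LDHA, which makes lactate, had 659 and 590 CPM in SW48 sgWRN2, against 720 and 737 CPM in SW48 sgCh2-2 (log2 -0.22, SE 0.09, adjusted p = 0.318), and 695 and 660.5 CPM in OVK18 sgWRN2, against 846 and 781 CPM in OVK18 sgCh2-2 (log2 -0.26, SE 0.09, adjusted p = 0.223). Its share of lactate dehydrogenase FPKM was 27.4 ± 0.785% with sgWRN2 and 31.1 ± 0.914% with sgCh2-2 in SW48, and 22.02 ± 1.72% with sgWRN2 and 25.5 ± 0.468% with sgCh2-2 in OVK18 (SD, n = 2 each). SLC2A3 had 7.99 and 4.85 CPM in SW48 sgWRN2, against 3.68 and 4.16 CPM in SW48 sgCh2-2 (log2 0.73, SE 0.20, adjusted p = 0.0869), and this difference passed without SW48 sgWRN2 library B (0.0201), without the filter on low counts (0.0104) and with DESeq2 (0.00931). EGLN1 had 85.7 and 74.8 CPM in SW48 sgWRN2, against 92.1 and 104.2 CPM in SW48 sgCh2-2 (adjusted p = 0.412), and 98.2 and 72.7 CPM in OVK18 sgWRN2, against 116.3 and 119.2 CPM in OVK18 sgCh2-2 (adjusted p = 0.169). PFKFB4 had 8.38 and 13.3 CPM in OVK18 sgWRN2, against 20.4 and 15.4 CPM in OVK18 sgCh2-2 (log2 -0.74, SE 0.21, adjusted p = 0.147). SLC2A1 had 742 and 779 CPM in SW48 sgWRN2, against 694.5 and 591 CPM in SW48 sgCh2-2, and VEGFA 45.7 and 47.8 CPM, against 37.9 and 43.7 CPM; neither passed. In OVK18, SLC2A1 had 32.7 and 43.0 CPM with sgWRN2, against 42.8 and 37.03 CPM with sgCh2-2. VEGFA had 39.2 and 46.2 CPM in OVK18 sgWRN2, against 45.7 and 46.4 CPM in OVK18 sgCh2-2. Both genes overlapped their controls in OVK18, and neither passed. CA9 had 0 counts in all 4 sgWRN2 libraries and in all 4 sgCh2-2 libraries.

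None of the 17 enzymes and dehydrogenases passed with sgWRN2 in either line. Their log2 differences ran between -0.26 and 0.15 in SW48, with 14 of 17 below 0 and a median of -0.08, and between -0.34 and 0.17 in OVK18, with 12 of 17 below 0 and a median of -0.04; 43.9% and 50.2% of all genes tested lay below 0. The A to B differences above are of similar size, and HK1, the housekeeping hexokinase, was the member of this group with both sgWRN2 libraries above both controls in each line (184 and 186 CPM with sgWRN2, against 179 and 163 CPM with sgCh2-2 in SW48; 115 and 115 CPM with sgWRN2, against 110 and 94.9 CPM with sgCh2-2 in OVK18).

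Set side by side, 6 of 36 members had both sgWRN2 libraries below both controls in SW48 and again in OVK18: LDHA, PDK1, PDK3, PFKFB4, EGLN1 and the ankyrin repeat gene ANKRD37. Over all genes tested 8.22% did so. Another 4 members were above in both lines, HK1, SLC2A3, EPAS1 and P4HA2, a collagen prolyl hydroxylase, where 7.98% of all genes did so. With sgWRN3, LDHA alone was below in both lines, against 2.26% of all genes, and 0 members were above in both, against 1.43%. With sgWRN2, 1 of 36 members, the histone demethylase gene KDM3A, was above its controls in SW48 and below them in OVK18. Of all genes, 2.35% were so.

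**Figure D5:**
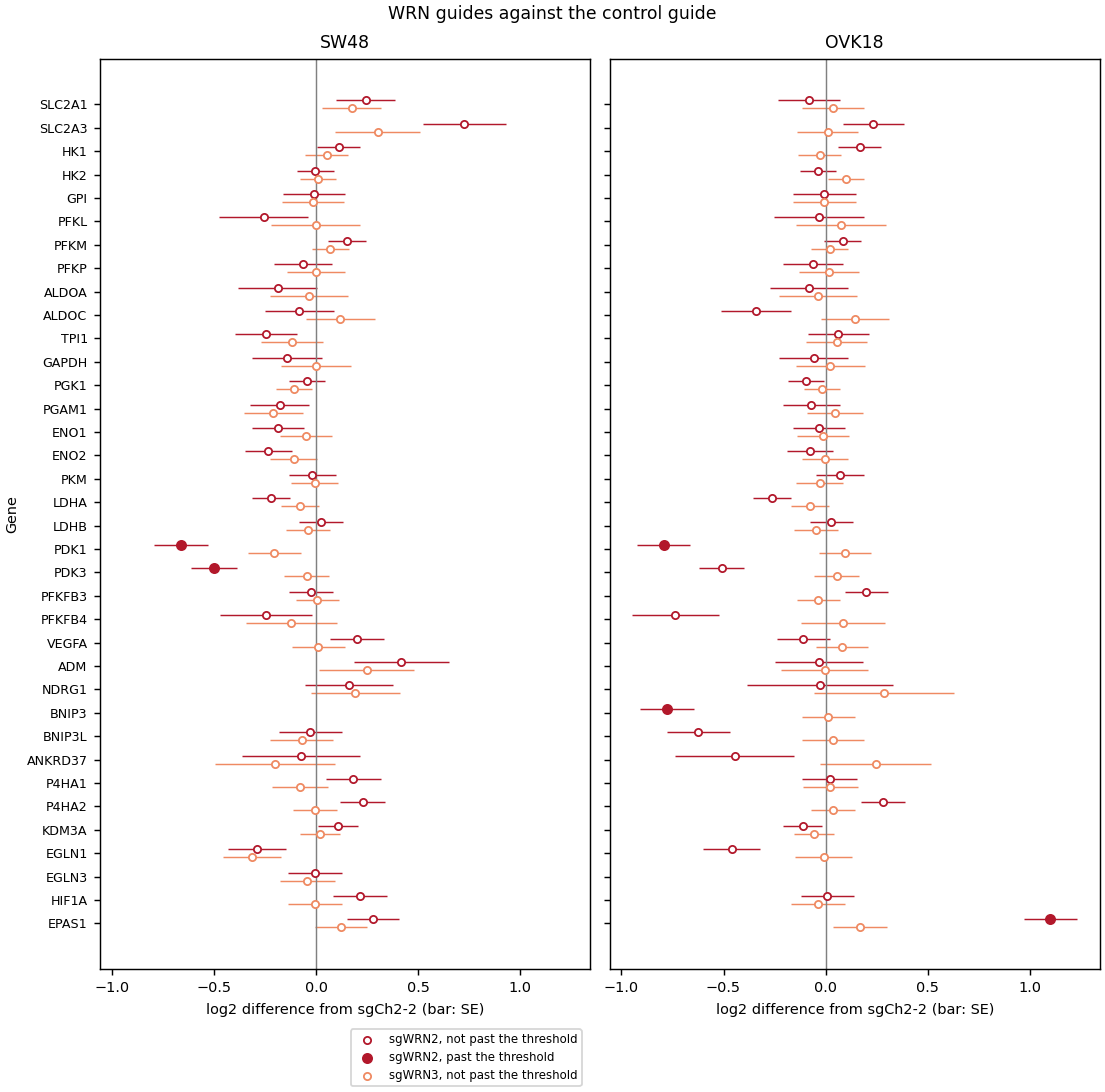
Log2 difference from sgCh2-2 (horizontal axis, bars are SE) of each member (vertical axis) for sgWRN2 and sgWRN3 in SW48 (left) and OVK18 (right); filled points passed the threshold. BNIP3 in SW48 and EGLN3 in OVK18 are left out for low counts; the sgWRN2 points of PDK1 lie at -0.66 and -0.79, and EPAS1 in OVK18 at 1.10.

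With sgWRN3 no member passed in either line, and neither did any gene: 0.00% of all genes tested passed in SW48 and 0.00% in OVK18 by edgeR, where 262 genes in SW48 (1.85%) and 116 in OVK18 (0.817%) had an unadjusted p under 0.05. DESeq2 called 0 members in each line. Of the members, 1 in SW48 (EGLN1) and 0 in OVK18 had an unadjusted p under 0.05. EGLN1 had 75.9 and 81.9 CPM in SW48 sgWRN3, against 92.1 and 104.2 CPM in SW48 sgCh2-2 (log2 -0.31, SE 0.14, adjusted p = 1). PDK1 had 42.6 and 50.4 CPM in SW48 sgWRN3, against 50.8 and 56.4 CPM in SW48 sgCh2-2, and 53.3 and 61.9 CPM in OVK18 sgWRN3, against 55.2 and 52.8 CPM in OVK18 sgCh2-2. It was thus below its controls in SW48 and overlapped them in OVK18.

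EPAS1 had 11.98 and 13.9 CPM in OVK18 sgWRN3, against 12.2 and 10.8 CPM in OVK18 sgCh2-2, and BNIP3 177 and 208 CPM, against 179 and 202 CPM; both overlapped. PGAM1 had 45.4 and 34.9 CPM in SW48 sgWRN3, against 46.8 and 46.0 CPM in SW48 sgCh2-2, and SLC2A3 5.25 and 4.34 CPM, against 3.68 and 4.16 CPM. In OVK18 sgWRN3, HK2, the inducible hexokinase, had 105.9 and 105 CPM, against 103.8 and 93.2 CPM with sgCh2-2, ANKRD37 1.83 and 2.13 CPM, against 1.75 and 1.61 CPM, and ALDOC, an aldolase isozyme, 21.3 and 18.9 CPM, against 21.0 and 15.4 CPM. All 36 tested members lay between log2 -0.15 and 0.29 in OVK18.

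The subunits, transporter and targets always followed gave no sgWRN3 difference past the threshold. HIF1A had 257 and 269.8 CPM in SW48 sgWRN3, against 252 and 277 CPM in SW48 sgCh2-2, and 322 and 367 CPM in OVK18 sgWRN3, against 333 and 374 CPM in OVK18 sgCh2-2. LDHA had 663 and 718 CPM in SW48 sgWRN3, against 720 and 737 CPM in SW48 sgCh2-2, and 768 and 777 CPM in OVK18 sgWRN3, against 846 and 781 CPM in OVK18 sgCh2-2. HIF1A overlapped its controls in both lines and LDHA lay below them in both. SLC2A1 had 781 and 669.6 CPM in SW48 sgWRN3, against 694.5 and 591 CPM in SW48 sgCh2-2, and 44.7 and 37.1 CPM in OVK18 sgWRN3, against 42.8 and 37.03 CPM in OVK18 sgCh2-2. VEGFA had 36.98 and 45.1 CPM in SW48 sgWRN3, against 37.9 and 43.7 CPM in SW48 sgCh2-2, and 50.2 and 47.1 CPM in OVK18 sgWRN3, against 45.7 and 46.4 CPM in OVK18 sgCh2-2. SLC2A1 overlapped its controls in both lines, and VEGFA overlapped them in SW48 and lay above them in OVK18.

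The guides were then compared directly, since a call with 1 guide and not the other is no test of a difference. In OVK18 4 of 36 members differed between sgWRN2 and sgWRN3, 1 higher and 3 lower with sgWRN2 (0.747% of all genes tested, 0.437% higher and 0.310% lower). EPAS1 was higher (log2 0.93, SE 0.13, adjusted p = 0.00819), and PDK1 (log2 -0.89, SE 0.13, adjusted p = 0.00964), BNIP3 (log2 -0.79, SE 0.13, adjusted p = 0.0212) and PDK3 (log2 -0.56, SE 0.11, adjusted p = 0.0425) were lower. PDK3 had 132 and 113 CPM with sgWRN2 and 169 and 194 CPM with sgWRN3 on counts, but was 0.43 higher with sgWRN2 on log2(FPKM + 0.1). Without OVK18 sgWRN3 library A, 0 of the 4 calls were left (EPAS1 adjusted p = 0.116, PDK1 0.0538, BNIP3 0.105, PDK3 0.118). The PDK1 call also ended without OVK18 sgWRN2 library A (0.0598) or OVK18 sgWRN3 library B (0.121). The BNIP3 call also ended without any 1 of the other 5 OVK18 libraries or SW48 sgWRN2 library B, at adjusted p between 0.0526 and 0.264, and the PDK3 call without any 1 of the 12 libraries, between 0.0525 and 0.381. When only OVK18 libraries were fitted, the EPAS1 (0.0518), BNIP3 (0.0627) and PDK3 (0.139) calls ended too, and the PDK3 call also with RLE size factors (0.0534).

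In SW48 0 of 36 members differed between sgWRN2 and sgWRN3 (0.944% of all genes tested). By unadjusted p under 0.05 (8.60% of all genes) there were 2, PDK3 (log2 -0.45, SE 0.11, adjusted p = 0.115) and PDK1 (log2 -0.46, SE 0.13, adjusted p = 0.189), and DESeq2 called 1. P4HA2 had 107.2 and 106.8 CPM with sgWRN2 and 97.2 and 84.8 CPM with sgWRN3, without passing.

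Whether the WRN-guide effect differed between the lines was tested on both guides together, SW48 minus OVK18. None of the 36 members passed (0.0282% of all genes tested; 1 member, EPAS1, had an unadjusted p under 0.05, against 2.75% of all genes, and DESeq2 called 0). EPAS1 came first, with a smaller difference in SW48 than in OVK18 (log2 -0.43, SE 0.16, adjusted p = 1), followed by SLC2A3 (log2 0.39, SE 0.22, adjusted p = 1), BNIP3L (log2 0.25, SE 0.19) and TPI1, triose phosphate isomerase (log2 -0.24, SE 0.18). BNIP3L had 112 and 102 CPM with sgWRN2 and 95.4 and 112 CPM with sgWRN3 in SW48, against 98.1 and 120.0 CPM with sgCh2-2; in OVK18 it had 106.6 and 129 CPM with sgWRN3 beside the values above. TPI1 had 316 and 315 CPM with sgWRN2 and 393 and 296 CPM with sgWRN3 in SW48, against 402 and 346 CPM with sgCh2-2. In OVK18 TPI1 had 379 and 423 CPM with sgWRN2 and 436 and 361 CPM with sgWRN3, against 421 and 347 CPM with sgCh2-2. On both guides together, a difference between the lines is therefore not shown for EPAS1 or for any other member. For sgWRN2 alone it was not tested. There the EPAS1 log2 difference from sgCh2-2 was 1.10 in OVK18 and 0.28 in SW48. BNIP3 had too few counts in SW48 for its difference between the lines to be read.

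A further list of 75 genes of the same pathways was examined, of which 71 were in the table and 56 were tested. With both guides together, and with sgWRN3 alone, 0 of 56 passed in either line by edgeR, where 0.866%, 0.0282%, 0.00% and 0.00% of all genes passed (both guides in SW48 and OVK18, then sgWRN3 in SW48 and OVK18). An unadjusted p under 0.05 was found for 1, 4, 1 and 1 of 56 in that order, against 7.84%, 4.04%, 1.85% and 0.817% of all genes. With sgWRN2 0 of 56 passed in SW48 (3.08% of all genes), and 11 had an unadjusted p under 0.05, against 13.1% of all genes. In OVK18 1 passed (0.796% of all genes), and 12 had an unadjusted p under 0.05, against 13.9%. The 1 that passed was STC2, the secreted glycoprotein stanniocalcin 2, with 23.2 and 21.9 CPM with sgWRN2 and 39.2 and 34.4 CPM with sgCh2-2 (log2 -0.70, SE 0.14, adjusted p = 0.0492). VHL, which encodes the ubiquitin ligase subunit that recognises hydroxylated HIF subunits, had 162 and 145 CPM with sgWRN2 and 204 and 211 CPM with sgCh2-2 in OVK18 and did not pass (log2 -0.44, SE 0.10, adjusted p = 0.0814). In SW48 the smallest p with sgWRN2 was that of PDP1, a pyruvate dehydrogenase phosphatase, which acts against the PDK enzymes; it had 123 and 105 CPM with sgWRN2 and 76.1 and 90.9 CPM with sgCh2-2 (log2 0.45, SE 0.14, adjusted p = 0.137). Between the control libraries 40 of 56 passed, 15 higher and 25 lower in SW48, where 68.6% of all genes passed, 33.9% higher and 34.7% lower. ENO3, the muscle enolase, had the smallest p of the list (log2 -6.42, SE 0.18, adjusted p = 1.60e-11).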

How the data were processed

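RNA was measured in 12 libraries, 2 per group, prepared with an mRNA kit per the labels' protocols. The authors deposited raw counts per gene; bcl2fastq 2.18, STAR 2.5, Cufflinks 2.2.1 and build hg19 are named per the submitters' processing notes. Length-scaled values, deposited with no unit in the header, were taken here as FPKM. The ratio of count to value rose with the length of the longest GENCODE transcript (Spearman rho 0.784 to 0.792 over genes in a library). Annotation, strand and multi-mapping settings are not given in the sources used here, so reads of antisense partners cannot be told apart. The table holds 25343 genes and 92 spike-in features, left out since all are 0; 28 symbols had become dates.

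The test was the quasi-likelihood one of edgeR 4.0.16 under R 4.3.3 (TMM, filterByExpr over 6 groups, 14199 genes, robust quasi-likelihood fit, 6 residual degrees of freedom, Benjamini-Hochberg over all genes), with 10 contrasts of 1 fit. SE is the log2 difference over the square root of F. Members, lists and named genes were chosen with earlier results of these data known. Values in every library are given for members past the threshold in a guide contrast, for up to 6 members at each end between lines, for the 4 smallest p per guide contrast, and always for HIF1A, EPAS1, SLC2A1, LDHA, PDK1, CA9 and VEGFA. Intervals and floors (3 counts) cover counting error only. Chi-square per gene between A and B was 8.68 to 25.0, so no library was counted as a copy. Steps were tested on simulated data for the sgWRN2 contrasts only. The outcome is not given here, so a result with no member past the threshold does not tell how large a difference could be missed. Alternatives used DESeq2 1.42.0 and limma 3.58.1, and FPKM with pseudocounts 1 and 0.1.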

Additional observations from a re-analysis of the deposited data

Results flagged for a closer look

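KDM3A, a histone demethylase induced by hypoxia, was the member whose libraries moved in opposite directions with sgWRN2 in the lines. It had 100.8 and 93.9 CPM in SW48 sgWRN2, against 89.3 and 91.6 CPM in SW48 sgCh2-2, a log2 difference of 0.11. In OVK18 it had 79.7 and 82.6 CPM with sgWRN2, against 87.6 and 87.8 CPM with sgCh2-2, a log2 difference of -0.11. Every sgWRN2 library of SW48 lay above its controls and every sgWRN2 library of OVK18 below them. This was so for 1 of 36 members, or 2.78%, which is near the 2.35% of all genes tested. On log2(FPKM + 0.1) the KDM3A differences were 0.018 in SW48 and -0.072 in OVK18. For sgWRN2 alone the difference between the lines was not tested. For both guides together it was 0.15 (SE 0.12, adjusted p = 1, edgeR).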

How the results depend on the processing

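With 2 libraries a group, no member's call in a guide contrast withstood every omission of 1 library. Between the lines, of the 6 members at each end, only the ADM call ended by an omission. Members past the threshold ranged over omissions of 1 library from 0 to 2 for sgWRN2 in SW48, 0 to 4 for sgWRN2 in OVK18, 0 to 1 and 0 to 3 for sgWRN2 against sgWRN3 in SW48 and OVK18, and 18 to 21 between lines; both guides together, sgWRN3 and the line difference stayed at 0. DESeq2 gave 1 for both guides in SW48, 1 for both guides in OVK18, 5 for sgWRN2 in OVK18 and 1 for sgWRN2 against sgWRN3 in SW48. Without the filter on low counts these were, from the second on, 1, 6 and 1. Library size alone and upper quartile each gave 1 for sgWRN2 against sgWRN3 in SW48. Fitting only the libraries of the line gave 1 for sgWRN2 and 1 for sgWRN2 against sgWRN3 in OVK18. FPKM gave 1 for sgWRN2 in SW48 with either pseudocount.

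The labels do not say that the letters A and B mark a shared batch, and they were not taken to pair the libraries. Correlations of A minus B between groups within a line ran from -0.226 to 0.413. Between the sgCh2-2 and sgWRN3 groups they were 0.413 in SW48 and 0.390 in OVK18, and those with sgWRN2 ran from -0.226 to 0.00693. The libraries of sgWRN3 and sgCh2-2 with the same letter thus deviated together. Between SW48 and OVK18 the correlations ran from -0.304 to 0.369. For the same guide in both lines they were 0.331 (sgCh2-2), 0.351 (sgWRN2) and 0.358 (sgWRN3). They were as high for SW48 sgCh2-2 with OVK18 sgWRN3 (0.363) and SW48 sgWRN3 with OVK18 sgCh2-2 (0.369). Where only 1 of the groups had sgWRN2 they ran from -0.304 to 0.0217. The part of this in the agreement between the lines was not tested. With the letter as a replicate block, 0 members passed for sgWRN3 in either line, 0 for sgWRN2 in SW48 (PDK1 adjusted p = 0.0528, PDK3 0.105), 1 for sgWRN2 in OVK18 (EPAS1; PDK1 0.0696, BNIP3 0.111) and 1 for sgWRN2 against sgWRN3 in OVK18 (EPAS1; PDK1 0.0531, BNIP3 0.0947, PDK3 0.126), at log2 differences of nearly the same size.

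PDK3 turned positive on FPKM (pseudocounts 1 and 0.1): 0.13 and 0.14 for both guides in SW48, 0.26 and 0.27 for both guides in OVK18, 0.22 and 0.23 for sgWRN2 in SW48, 0.47 and 0.49 for sgWRN2 in OVK18, 0.18 and 0.19 for sgWRN2 against sgWRN3 in SW48, and 0.41 and 0.43 in OVK18. Without the sgWRN2 libraries, where sgWRN3 alone is left, both guides in OVK18 gave 0.011 for BNIP3, 0.094 for PDK1 and 0.054 for PDK3, and the line difference of BNIP3L was -0.10. ALDOC with sgWRN3 in OVK18 ran from -0.075 (without OVK18 sgCh2-2 library B) to 0.37 over omissions. Apart from the construction named, the cause was not tested. Of 72 isozyme shares, 49 moved beyond 1 SD with CPM in place of FPKM.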
